A study of Mus musculus with 5 samples.

Results

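The genes described here encode the protein factors that start and extend polypeptide chains on the cytosolic ribosome, measured in invariant natural killer T (iNKT) cells of mouse liver. iNKT cells are T lymphocytes with a semi-invariant receptor for lipids shown on CD1d. Members were the protein-coding genes whose symbol begins with Eif and a digit, with Eef1 or with Eef2, which gave 68 of the 21884 protein-coding genes and of the 55364 gene rows in the count tables. The HCC group held 3 libraries, from male wild-type C57BL/6 mice with hepatocellular carcinoma after a single intraperitoneal dose of 25 mg/kg diethylnitrosamine (DEN, a liver carcinogen) at 15 days of age. The healthy group held 2 libraries, from wild-type mice that had received PBS. The protocol gives an age of 38 to 42 weeks at the end. Cells had been sorted by flow cytometry as positive for both a CD1d tetramer loaded with PBS57 and the T cell receptor beta chain, and the RNA was made into 3′ mRNA libraries. The study design compares tumour-bearing with healthy liver. The titles number 3 HCC samples, but the table names of HCC 2 and HCC 3 share a number. Whether each library is a mouse of its own cannot be told from the tables. The p-values then measure the spread between these libraries, which may be partly technical.

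Protein synthesis begins when eIF2 brings the initiator tRNA to the small ribosomal subunit, which eIF1, eIF1A, eIF3 and eIF5 hold in a state able to scan. The eIF4F complex binds the mRNA cap, unwinds the leader and recruits this subunit through eIF3. After joining of the large subunit with the help of eIF5B, eEF1A delivers aminoacyl-tRNAs, eEF1B recharges eEF1A with GTP, and eEF2 moves the ribosome along the mRNA. Resting T cells keep this machinery low and raise it on activation, through the kinase mTORC1, which frees eIF4E from its binding proteins. Many mRNAs of ribosomal proteins and elongation factors carry a pyrimidine tract at the very 5′ end (5′ TOP), by which mTORC1 governs their translation.

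Start-site sequences of 6 members are printed because these genes include highly counted ones and both copies of eIF2 gamma, and each holds a pyrimidine tract near its annotated start. The windows are 30 bases on the gene's strand, 5′ to 3′, from RefSeq on GRCm38.p6, with the tract in capitals.
Eef1a1, chr9:78481706-78481735, minus strand: gctccgCCCTCTTCCCgagggtgggggaga
Eef1b2, chr1:63176851-63176880, plus strand: tgcgtccgagcgCTTTCgttcaactccggc
Eif3f, chr7:108934405-108934434, plus strand: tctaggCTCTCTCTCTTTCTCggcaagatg
Eif3k, chr7:28981852-28981881, minus strand: aaagcgCCTTTCCCTTTgccttccttgtag
Eif2s3x, chrX:94212633-94212662, minus strand: cgagcaTTTTCCTTTTCTCTCCgagcaaga
Eif2s3y, chrY:1010590-1010619, plus strand: cagccaCTTCCTTCTTTCgtgagcaagatg
The words searched were CTTTT, then CTTTC with the same first letters, and also CTCTT, which may overlap each other, on the gene's strand only, from 10 bases before to 50 after the annotated start. Of the 68 members 52 had an entry, and 14 of these (26.9%) held a word, against 20.98% of the 27025 genes in the table. With the annotated start as base 1, the first word began at -3 in Eef1a1, 33 in Eef1b2 and 3 in Eif3f. It began at 15 in Eif3k, 1 in Eif2s3x and 9 in Eif2s3y. The tracts in capitals thus do not all lie at the very 5′ end. The annotated start need not be the start used in iNKT cells, so a match is a description of these letters only.

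Total counts were 1718452 to 1883979 in the HCC libraries and 2224356 and 1821863 in healthy 1 and 2. Levels are CPM, counts scaled by each library's own total to a common sum, and since 3′ libraries count transcript ends they were not divided by gene length. A count of 0 was taken to allow 3 counts, or 1.35 to 1.75 CPM, and all such limits cover counting error only. Healthy 1 stood apart. It had the most counts but the fewest genes with a count, 10861. HCC 1, 2 and 3 had 13059, 11822 and 12054 such genes, and healthy 2 had 13229. Healthy 1 also had the largest share of counts in pseudogene rows, 38.5%. Whether this bears on the counts of 0 in healthy 1 below was not tested. The Pearson r of healthy 1 with the other libraries, across genes, was 0.766 to 0.818. The other 4 had 0.853 to 0.905 with each other (genes are not independent replicates). The low end of the latter range, 0.853, was the r of HCC 2 with HCC 3, whose table names share a number. The T cell markers were present, with Cd3e at 306 to 534 counts in the HCC and 417 and 449 in the healthy libraries, but Zbtb16, the transcription factor that defines iNKT cells, had 0 to 3 counts in all 5. Klrb1c, which encodes NK1.1, had 854, 36 and 628 counts in HCC 1, 2 and 3 and 850 and 10 in healthy 1 and 2. Markers of other cells moved with the groups: the 5 erythroid markers summed to 7389.9, 17083 and 15385 CPM in HCC 1, 2 and 3, against 2975 and 2787 CPM in healthy 1 and 2, and the 10 hepatocyte markers to 64.8, 279.9 and 589.7 CPM, against 48.6 and 53.2 CPM. The B cell markers summed to 102, 124 and 84.9 CPM in HCC libraries, against 36.0 and 80.1 CPM, the neutrophil markers to 8.71, 12.8 and 2.12 CPM, against 0 and 1.098 CPM, and the endothelial markers to 2.18, 1.75 and 3.18 CPM, against 0 and 0.549 CPM, so these too were higher in every HCC library. The sums of the macrophage, stellate and dendritic cell lists overlapped between the groups and reached at most 33.8 CPM. Vsig4, Csf3r, Stab2, Lrat, Siglech, Xcr1 and Flt3 were at 0 throughout. The part of these cells in the levels below was not tested, and in bulk RNA fewer cells of a type cannot be told apart from less RNA per cell.

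The summed share of the translation factors in HCC libraries lay between those of the 2 healthy libraries. Together the members took 1.40%, 1.55% and 1.35% of all counts in HCC 1, 2 and 3, against 1.95% and 1.27% in healthy 1 and 2. Most of this came from 4 genes, Eef2, Eef1a1, Eef1d and Eef1b2, which held 66.0 to 68.0% of the members' counts in HCC libraries and 78.4% and 61.9% in healthy 1 and 2. Eef1a2, the eEF1A form of muscle and neurons, and Eif4e1b, an oocyte form of eIF4E, had 0 counts in every library.

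**Figure D1:**
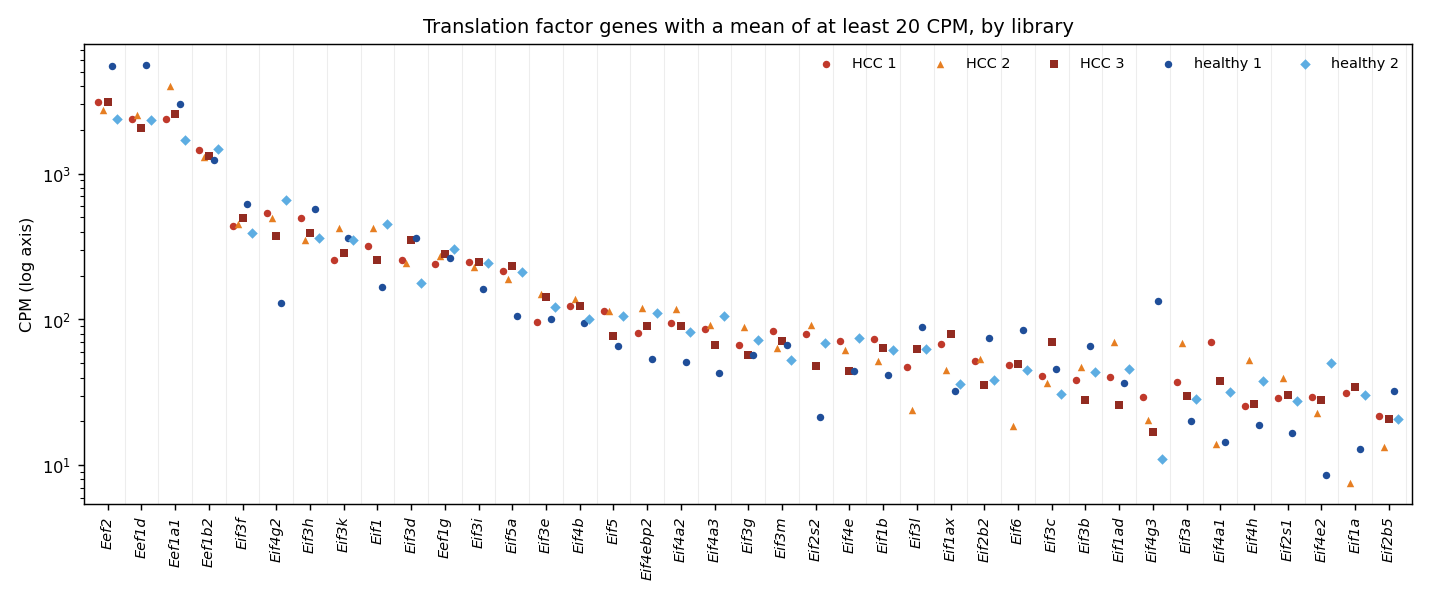
CPM (log axis) of the 39 translation factor genes whose mean reached 20 CPM, each point 1 library, with HCC libraries left of healthy ones within each gene. Healthy 1 (dark blue circles) lies apart from the other points in Eef2, Eef1d, Eif4g2 and Eif4g3, while Eef1b2 spans 1247 to 1481 CPM.

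Of the 68 members 57 passed the filter on low counts, and edgeR called 0 of them in either direction (adjusted p below 0.05). The background over all 8468 genes tested was 0% higher and 0% lower as well, and no gene had an adjusted p below 0.9998. By unadjusted p, again below 0.05, 0 members were higher and 2 lower in edgeR, where 2.15% of all genes were higher and 1.48% lower. DESeq2 called 0 of 66 members in either direction, with 0 higher and 2 lower at an unadjusted p under 0.05. Of all 16663 genes it tested, 256 were higher and 176 lower at that unadjusted p. By libraries, scaled by their totals, 6 of the 57 tested members (10.5%) lay above both healthy libraries in all 3 HCC libraries, against 12.8% of all genes, and 1 (1.75%) lay below, against 5.46%. Both shares are close to or under those of all genes. The median log2 fold change of the tested members, HCC over healthy, was 0.04, with 31 fitted higher and 26 lower, and that of all genes was 0.0047. Where libraries were scaled by their totals in place of TMM, which sets the bulk of genes equal between libraries, the median of all genes moved to 0.16 and that of the members to 0.22, with 38 members fitted higher and 19 lower.

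**Figure D2:**
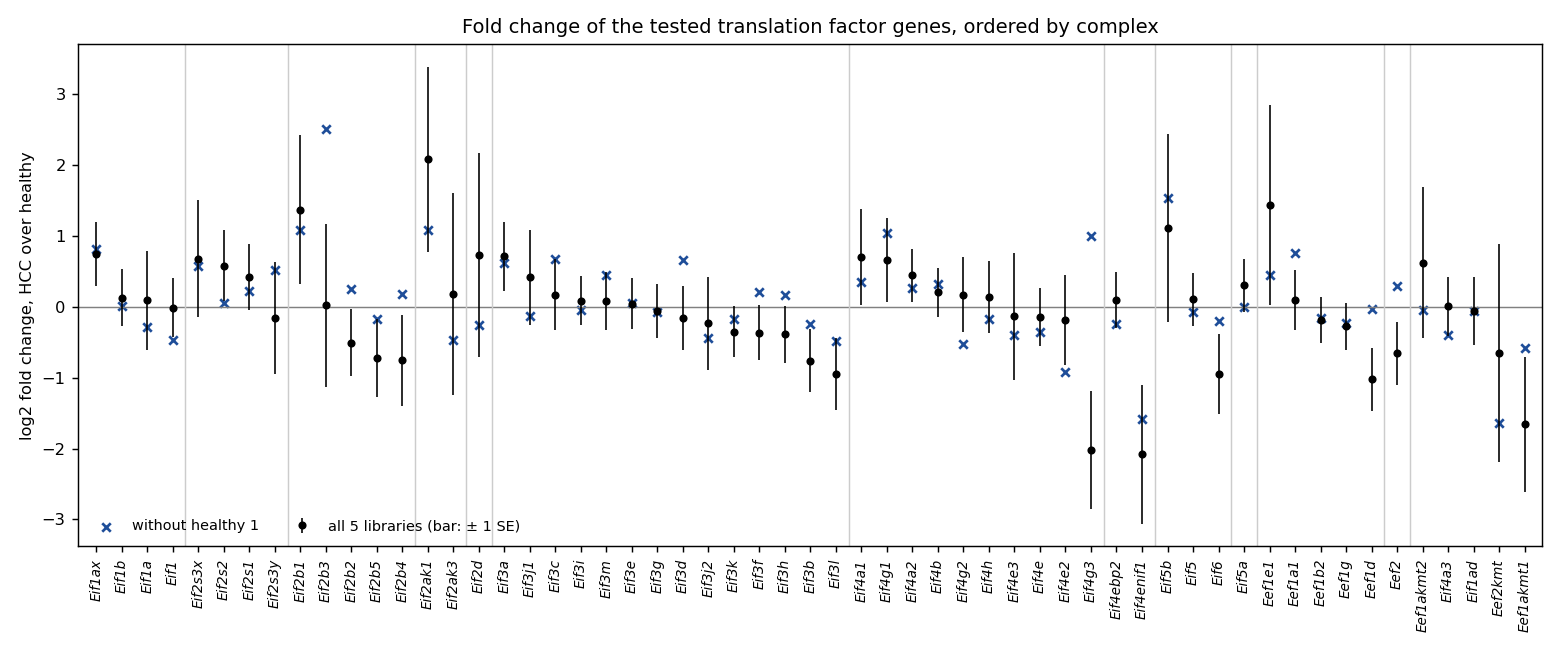
Log2 fold change, HCC over healthy, of the 57 tested members from edgeR, ordered by complex, as points with bars of 1 SE on either side. Crosses give the value without healthy 1: Eif4g3 is at -2.02 with all libraries and at 0.99 without healthy 1, and Eef1d at -1.03 and -0.04.

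Elongation factors were the most counted members, and none passed the test. Eef1a1, the GTPase that brings aminoacyl-tRNAs to the ribosome (ENSMUSG00000037742), was at 2379.7, 4003 and 2543 CPM in HCC 1, 2 and 3, against 3000.4 and 1705 CPM in healthy 1 and 2. HCC 2 was the highest library and healthy 2 the lowest, and the groups overlapped (log2 fold change 0.09, SE 0.42, edgeR adjusted p = 0.9998). Eef2, the translocase (ENSMUSG00000034994), was at 3081, 2705 and 3069 CPM in HCC libraries, against 5471 and 2378 CPM in healthy 1 and 2. The HCC libraries lay close together, between the healthy ones, and the log2 fold change of -0.66 (SE 0.45) was 0.29 without healthy 1. Its kinase Eef2k, which halts elongation, had a single HCC library above 0, at 0.54 CPM, and was not tested.

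The exchange factor eEF1B is built from a catalytic alpha subunit (Eef1b2), a catalytic delta subunit (Eef1d) and a scaffold gamma subunit (Eef1g). Eef1d (ENSMUSG00000055762, chromosome 15) was at 2355, 2517 and 2068 CPM in HCC 1, 2 and 3, against 5555 and 2319 CPM in healthy 1 and 2. Healthy 2 thus lay within the range of the HCC libraries, and healthy 1 was 2.69-fold above the lowest library. Its log2 fold change was -1.03 (SE 0.45, unadjusted p = 0.0455, adjusted p = 0.9998 in edgeR) with all libraries and -0.04 without healthy 1. Without healthy 2 it was -1.56 (edgeR adjusted p = 0.0286), where healthy 1 alone stands for its group and is taken to vary as the HCC libraries do. Eef1b2, by contrast, was the steadiest of the highly counted members, at 1449, 1299 and 1311 CPM in HCC libraries, against 1247 and 1481 CPM in healthy 1 and 2 (log2 fold change -0.19, SE 0.32). Eef1g was at 240.5, 271 and 279.7 CPM, against 262.5 and 303.5 CPM, so the gamma subunit was counted at a fraction of the other eEF1B subunits in every library. The ratio of Eef1d to Eef1b2 counts was 1.62, 1.94 and 1.58 in HCC 1, 2 and 3, against 4.45 and 1.57 in healthy 1 and 2. Eef1e1, a scaffold of the multi-synthetase complex that carries an eEF1 name, was at 3.18 to 16.3 CPM in HCC libraries, against 0 and 6.04 CPM.

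Several of these genes share sequence or position with other rows of the tables. Gm13456, a processed pseudogene that shares 64.9% of its 31-base words with Eef1a1 transcripts, was at 2470.0, 2226 and 2057 CPM in HCC libraries, against 4057 and 1892 CPM in healthy 1 and 2. With that row added, Eef1a1 reached 4849.7, 6229 and 4599.8 CPM in HCC libraries, against 7057 and 3597 CPM in healthy 1 and 2, and its log2 fold change was -0.28 where the gene's own row gave 0.09. A second annotated row, the miRNA gene Gm26377, lies within an exon of Eef1a1 and held 86.6%, 90.8% and 88.0% as many counts as Eef1a1 in HCC 1, 2 and 3, and 94.0% and 79.0% in healthy 1 and 2. In the same way Eif4ebp3 and the overlapping AC115631.1 had identical counts of 4, 8, 6, 8 and 19 in HCC 1, 2 and 3 and healthy 1 and 2. How reads that match more than 1 row were counted is not given in the sources used here, so levels of such genes are uncertain.

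Eif1, which keeps the scanning ribosome open until a start codon is found (ENSMUSG00000035530), had 5 pseudogene rows with counts in most libraries. Its own row was at 319.4, 425 and 255 CPM in HCC 1, 2 and 3, against 167 and 450.1 CPM in healthy 1 and 2. These rows, which share at least 50% of their words with it, summed to 516, 531 and 476 CPM in HCC libraries, against 852 and 502 CPM in healthy 1 and 2. Healthy 1 was lowest in the gene's own row and highest in the pseudogene rows. The highest library was 2.69-fold above the lowest in the own row and 1.40-fold with the pseudogene rows added. In all, 12 members had 17 such rows. Eef1b2 had 1, Gm43712, at 1960.1, 1578 and 1717 CPM in HCC libraries, against 2108 and 1668 CPM in healthy 1 and 2, more than the gene's own row in each library. Of the words in the last 300 bases of its transcripts, Eef1a1 shared 71.9% with other genes, Eif3m 51.3%, Eif4a3 40.4%, Eif2s2 39.2%, Eef1b2 and Eif2s3x 38.2% each, and Eif3j2 shared 88.5% with Eif3j1.

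**Figure D3:**
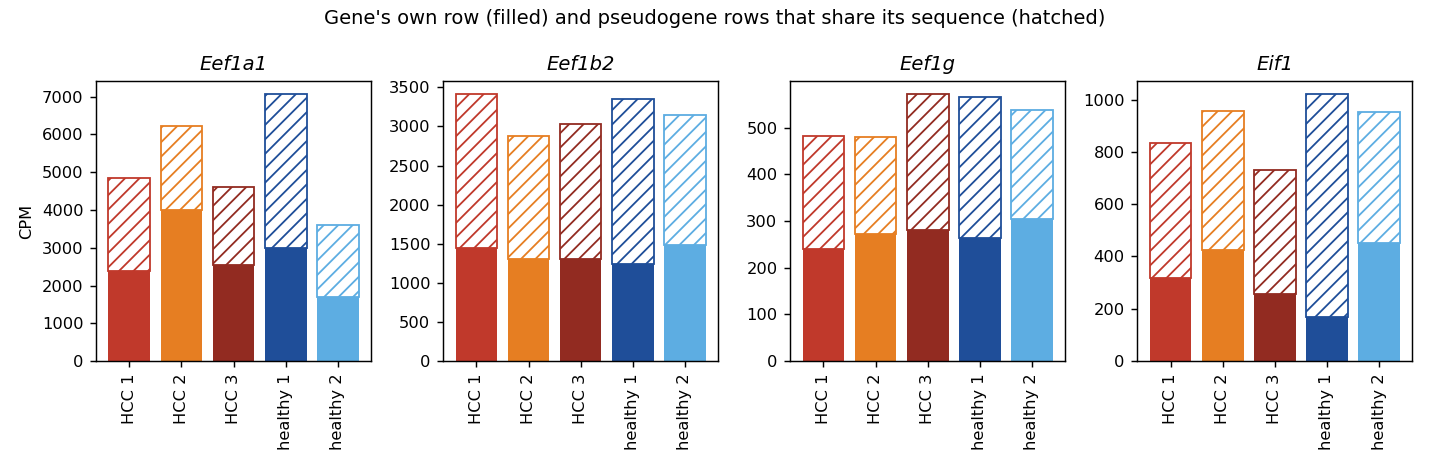
CPM of the gene's own row (filled) and of the pseudogene rows that share at least 50% of their 31-base words with it (hatched, stacked) for Eef1a1, Eef1b2, Eef1g and Eif1, 1 bar per library, HCC libraries at the left. In Eif1 the filled part is smallest in healthy 1, at 167 CPM, and the hatched part largest, at 852 CPM.

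The other genes of the scanning complex had lower counts. Eif1b, a close copy of Eif1, was at 63.0 ± 10.9 CPM in HCC and 51.9 ± 14.3 CPM in healthy libraries (SD, n = 3 and n = 2). Eif1ax, the X-linked gene of eIF1A, which places the initiator tRNA in the decoding site, was at 68.0, 44.8 and 79.6 CPM in HCC 1, 2 and 3, against 32.4 and 36.2 CPM in healthy 1 and 2. All HCC libraries lay above both healthy ones, with a log2 fold change of 0.74 (SE 0.45, edgeR adjusted p = 0.9998), which was 0.81 without healthy 1. Summed over its 4 genes the group was at 492, 529.5 and 433 CPM in HCC libraries, against 254 and 578.5 CPM in healthy ones.

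The eIF2 complex, which carries the initiator tRNA and is the target of the stress kinases, had no member past the test. Eif2s1, the alpha subunit that these kinases phosphorylate, was at 28.8, 39.6 and 30.3 CPM in HCC 1, 2 and 3, against 16.6 and 27.4 CPM in healthy 1 and 2, with no overlap of the groups (log2 fold change 0.42, SE 0.47). HCC 1 was separated from healthy 2 by little more than 1 CPM. Eif2s2, the beta subunit, was at 78.9, 91.9 and 48.3 CPM, against 21.6 and 68.6 CPM, and the gamma subunit, encoded by the pair Eif2s3x and Eif2s3y, was at 5.84 to 14.1 and 6.40 to 24.9 CPM in HCC libraries, against 4.95 and 7.14 and 16.6 and 9.33 CPM in healthy 1 and 2. The 4 genes summed to 131, 151 and 109 CPM in HCC libraries, against 59.8 and 113 CPM in healthy ones. Healthy 2 thus lay among the HCC libraries, and the log2 ratio of group means, 0.60, was 0.21 without healthy 1.

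Of the 5 genes of eIF2B, the exchange factor that recharges eIF2 with GTP, 3 were highest in healthy 1. Eif2b2 was at 51.7, 53.5 and 35.6 CPM in HCC libraries, against 74.2 and 38.4 CPM in healthy 1 and 2. Eif2b4 was at 12.5, 12.2 and 13.3 CPM, against 25.2 and 10.98 CPM, and Eif2b5, the catalytic subunit, at 21.8, 13.4 and 20.7 CPM, against 32.4 and 20.9 CPM. Healthy 2 was within the HCC range for Eif2b2 and Eif2b5 and below it for Eif2b4. The log2 fold change of Eif2b2 was -0.51 (SE 0.47) and 0.25 without healthy 1. That of Eif2b4 was -0.76 (SE 0.64) and 0.18, and that of Eif2b5 was -0.72 (SE 0.55) and -0.18. The other two differed in order: Eif2b1 was at 6.53, 19.2 and 3.72 CPM in HCC 1, 2 and 3, against 2.25 and 4.39 CPM in healthy 1 and 2, and Eif2b3 at 10.9, 5.82 and 3.18 CPM, against 9.44 and 1.098 CPM. The 4 eIF2 kinases had few counts. Eif2ak1 (HRI, activated by lack of heme) was at 11.4, 32.6 and 4.25 CPM in HCC 1, 2 and 3, against 0 and 7.14 CPM in healthy 1 and 2 (log2 fold change 2.08, SE 1.30, edgeR adjusted p = 0.9998). The log2 fold change was 1.09 without healthy 1 and 1.13 without HCC 2. Without healthy 2 it was 7.82, a fitted value against a single library at 0 that depends on the prior count and is no bound. HCC 3 was below healthy 2, so the groups overlapped. Eif2ak3 (PERK, the kinase of the endoplasmic reticulum) was at 0.53 to 10.9 CPM, against 1.35 and 6.59 CPM, Eif2ak2 (PKR, activated by double-stranded RNA) at 1.75 to 5.84 CPM, against 0 and 2.74 CPM, and Eif2ak4 (GCN2, activated by amino acid shortage) at 0 in 4 libraries and 3.84 CPM in healthy 2. For these 3 kinases a difference between the groups was not detectable at this depth. Eif2a and Eif2d, factors of alternative tRNA delivery, stayed under 10 CPM in each library.

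eIF3, the largest initiation factor and the platform for the small subunit, had summed levels in HCC libraries between those of the healthy ones. Its 14 genes summed to 2125, 2223 and 2260.1 CPM in HCC 1, 2 and 3, against 2539.6 and 1981 CPM in healthy 1 and 2, a ratio of group means of 0.975. Counts were unevenly spread over the subunits. Eif3f was at 437.5, 449 and 493 CPM in HCC libraries, against 623 and 392.5 CPM, Eif3h at 498, 348 and 393 CPM, against 569 and 362 CPM, and Eif3k at 255, 425 and 284.5 CPM, against 361 and 352 CPM. Eif3d, which can bind caps itself, and Eif3i followed at 243 to 352 and 228 to 247 CPM in HCC libraries. The scaffold subunits of the core were far lower, with Eif3b at 28.1 to 47.1 CPM and Eif3c at 36.7 to 70.1 CPM in HCC libraries. Eif3a, the largest subunit, was at 37.0, 69.2 and 29.7 CPM in HCC 1, 2 and 3, against 20.2 and 28.5 CPM in healthy 1 and 2. It was the only eIF3 gene whose groups did not overlap (log2 fold change 0.71, SE 0.49, edgeR adjusted p = 0.9998), though HCC 3 and healthy 2 differed by about 1 CPM. Of the 14 genes 6 were fitted higher and 8 lower, with a median log2 fold change of -0.11.

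**Figure D4:**
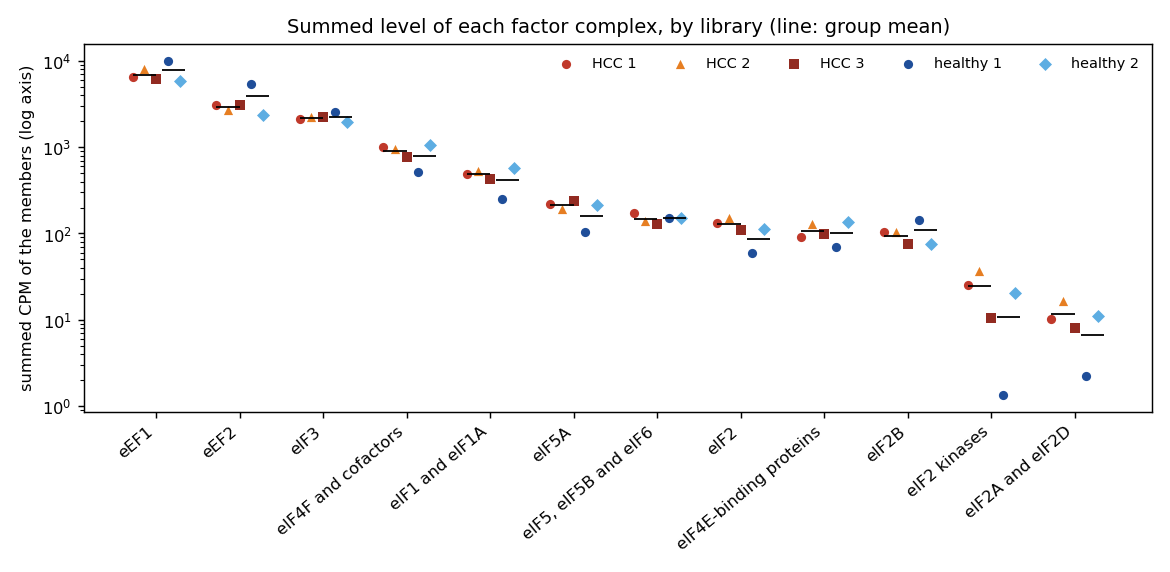
Summed CPM (log axis) of the members of each of the 12 factor complexes by library, HCC left of healthy, with a line at each group's mean. The groups overlap in all 12 complexes. Healthy 1 is lowest in eIF1, eIF2, the eIF2 kinases, eIF2A and eIF2D, eIF4F, the eIF4E-binding proteins and eIF5A. It is highest in eEF1, eEF2, eIF3 and eIF2B.

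None of the 10 tested genes of the cap-binding complex and its cofactors was called. By library totals, 3 of the 10 were above both healthy libraries in all HCC libraries, against 12.8% of all genes. Eif4b, which stimulates the helicase eIF4A, was at 123.0, 137 and 124 CPM in HCC 1, 2 and 3, against 94.4 and 101 CPM in healthy 1 and 2. Its log2 fold change after TMM scaling was 0.20 (SE 0.34), which did not pass in edgeR. Eif4a2, 1 of the 2 cytosolic eIF4A helicases, was at 94.1, 119 and 89.7 CPM, against 51.3 and 81.8 CPM (log2 fold change 0.44, SE 0.37). Eif4g1, the scaffold that joins the cap-binding protein to eIF3, was at 19.0, 22.7 and 17.5 CPM, against 12.1 and 9.33 CPM. The paralog Eif4a1 was counted below Eif4a2 in every library, at 69.7, 13.97 and 37.7 CPM in HCC and 14.4 and 31.8 CPM in healthy libraries. Eif4e, the cap-binding protein, was at 59.2 ± 13.5 CPM in HCC and 59.1 ± 21.2 CPM in healthy libraries.

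For Eif4g2 and Eif4g3, unlike Eif4g1, healthy 1 and healthy 2 were at opposite ends. Eif4g2, a relative of eIF4G that lacks the eIF4E site (ENSMUSG00000005610, chromosome 7), was at 534, 495 and 376 CPM in HCC 1, 2 and 3, against 129 and 659.8 CPM in healthy 1 and 2. Its log2 fold change of 0.16 (SE 0.53) was -0.53 without healthy 1 and 1.57 without healthy 2. Eif4g3 (ENSMUSG00000028760, chromosome 4), a paralog of Eif4g1, was at 29.4, 20.4 and 16.99 CPM in HCC libraries, against 134 and 10.98 CPM in healthy 1 and 2. It had the smallest unadjusted p of the members in edgeR (0.0367, log2 fold change -2.02, SE 0.83, adjusted p = 0.9998). Without healthy 1 its log2 fold change turned to 0.99, and without healthy 2 it was -2.87. In each of these fits 1 healthy library alone stands for its group and is taken to vary as the HCC libraries do. The ratio of Eif4g2 to Eif4g3 counts was 18.2, 24.3 and 22.1 in HCC 1, 2 and 3, against 0.966 and 60.1 in healthy 1 and 2.

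Repressors of eIF4E, which mTORC1 inactivates, were represented mainly by Eif4ebp2. It was at 80.5, 120.5 and 89.7 CPM in HCC libraries, against 53.5 and 111 CPM in healthy 1 and 2 (log2 fold change 0.09, SE 0.39). Eif4ebp1 was at 4.90, 0 and 4.25 CPM, against 0 and 6.04 CPM, and Eif4ebp3 at 2.18, 4.66 and 3.18 CPM, against 3.597 and 10.4 CPM, both under the filter. Eif4enif1, the transporter that takes eIF4E into the nucleus, was the only tested member below both healthy libraries in all HCC libraries. It was at 2.72, 4.07 and 1.59 CPM in HCC 1, 2 and 3, against 12.1 and 8.23 CPM in healthy 1 and 2, with a log2 fold change of -2.08 (SE 0.98, unadjusted p = 0.0599, adjusted p = 0.9998 in edgeR) that was -1.59 without healthy 1. HCC 3 was at the level that 3 counts give, so this difference rests on few reads.

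Factors of start-codon commitment, subunit joining and eIF5A had no member past the test. Eif5, which makes eIF2 hydrolyse its GTP, was at 102 ± 21.8 CPM in HCC and 85.2 ± 27.7 CPM in healthy libraries. Eif5b was at 7.07, 5.82 and 2.12 CPM, against 2.25 and 1.65 CPM. Eif6, which keeps free large subunits from joining, was at 49.0, 18.6 and 49.4 CPM, against 84.5 and 45.0 CPM (log2 fold change -0.94, SE 0.56, and -0.21 without healthy 1). Eif5a, which carries the modified lysine hypusine and helps ribosomes through difficult sequences, was at 215.5, 190.3 and 231 CPM in HCC 1, 2 and 3, against 105 and 210.2 CPM in healthy 1 and 2. Healthy 2 was within the HCC range, and the log2 fold change of 0.30 (SE 0.37) was -0.0061 without healthy 1. Its paralog Eif5a2 was at 0 to 6.90 CPM in HCC libraries, against 0 and 2.74 CPM.

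Genes that bear a factor's name without belonging to its complex had no call either. Eif4a3, a helicase of the exon junction complex, was at 81.2 ± 13.3 CPM in HCC and 74.0 ± 43.6 CPM in healthy libraries. Eif1ad, an eIF1A-like protein, was at 45.4 ± 22.4 and 41.2 ± 6.15 CPM. Eef1akmt1, a lysine methyltransferase of eEF1A, was at 12.5, 1.75 and 3.18 CPM in HCC 1, 2 and 3, against 22.5 and 8.78 CPM in healthy 1 and 2 (log2 fold change -1.66, SE 0.95). That value was -0.59 without healthy 1 and -2.87 without HCC 1.

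The spread between libraries was described by the ratio of the highest to the lowest. The highest library exceeded the lowest by a median of 2.43-fold in the tested members and 3.14-fold in all genes tested, and among those with a mean of at least 100 CPM, by 1.66-fold in 15 members and 2.00-fold in 1120 genes. Healthy 1 was the highest or lowest of the 5 libraries for 39 of the 57 tested members (68.4%), and for 60.6% of all genes. Among those with a mean of at least 100 CPM, the shares were 73.3% of members and 72.9% of genes. Healthy 1 was the lowest in 25 members (43.9%, against 41.9% of all genes). It was the highest in 14 (24.6%, against 18.8%), among them Eef2, Eef1d, Eif3f, Eif3h, Eif4g3 and the 3 named eIF2B genes. Healthy 2 was an extreme library for 20 members (35.1%), against 35.0% of all genes.

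Other genes of the translation pathway had no call. Of 78 genes in 8 lists (termination and recycling, poly(A)-binding proteins, the mTORC1 and S6 kinase arm, integrated stress response, hypusine and diphthamide synthesis, mitochondrial factors, aminoacyl-tRNA synthetases and other 5′ TOP mRNAs) 64 were tested, and 0 were called in edgeR, with 0 at an unadjusted p under 0.05 and a median log2 fold change of 0.03. All HCC libraries lay above both healthy ones for 6 of the 64 and below for 3, smaller shares than the 12.8% and 5.46% of all genes. Tpt1, a 5′ TOP mRNA and the most counted of them, was at 5336, 8462 and 5133 CPM in HCC 1, 2 and 3, against 6485 and 6335 CPM in healthy 1 and 2. Like the own row of Eef1a1, it was highest in HCC 2. Rack1, the next most counted of the 5′ TOP list, was highest in healthy 1. Its levels were 1344, 1212 and 1102 CPM in HCC 1, 2 and 3, against 1487 and 1333 CPM in healthy 1 and 2. Pabpc1, the poly(A)-binding protein that contacts eIF4G, was at 215 ± 51.5 CPM in HCC and 203 ± 11.8 CPM in healthy libraries. Pdcd4, an inhibitor of eIF4A, was at 171 ± 30.0 and 171 ± 31.5 CPM, and Atf4, the transcription factor translated when eIF2 is phosphorylated, at 49.9 ± 12.03 and 48.8 ± 4.76 CPM. The 22 genes of the synthetase list summed to 683, 648 and 579.6 CPM in HCC libraries, against 529 and 557 CPM in healthy 1 and 2, by library totals. The TMM factors were 1.04, 1.12 and 1.00 in HCC 1, 2 and 3, against 0.83 and 1.04 in healthy 1 and 2. Divided by these factors as well, the sums of the groups overlap. After TMM scaling 13 of the 21 tested genes of the synthetase list were fitted higher, where 50.3% of all genes were. Farsb, a subunit of the phenylalanine enzyme, was at 66.4, 53.0 and 83.3 CPM, against 36.0 and 35.7 CPM (log2 fold change 0.74, SE 0.43, edgeR adjusted p = 0.9998), and its partner Farsa at 90.4 ± 32.7 and 108 ± 25.0 CPM. The 88 cytosolic ribosomal protein rows summed to 174103, 166897 and 159918 CPM in HCC libraries, against 166183 and 184420 CPM in healthy ones.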

How the data were processed

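Each library has 1 deposited table of unnormalised integer counts by Ensembl gene, made by the authors from QuantSeq 3′ libraries for Ion Torrent, per the labels' protocols. The submitters' processing notes name HISAT2, Bowtie2, DESeq2, edgeR and other tools with no role or version, and the mm10 build. The read counter, its gene models and strand use are not given in the sources used here. Symbols, biotypes and overlaps came from GENCODE M21 (GRCm38) by gene ID. Pseudogenes took 31.7 to 38.5% of each library's counts, and IDs with no symbol took 0.763 to 1.08%.

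Counts were tested in R 4.3.3 with edgeR 4.0.16 (quasi-likelihood F test, TMM, filterByExpr by group, Benjamini-Hochberg over all genes tested, threshold 0.05). A check on simulated counts required calls of set changes only at a spread lower than in these data. At the spread of these data it required only the direction of the largest changes. It therefore does not show that changes would be called here. SE values come from the edgeR fit. DESeq2 1.42.0 was an alternative. Replicates are described as separate mice, but the table names of HCC 2 and HCC 3 share a number. The replicate numbers do not pair the mice.

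Members and lists were chosen with earlier results of these data known. Named members were the 3 with the highest mean CPM in each complex, those with an unadjusted p under 0.05, and those with a mean of at least 20 CPM whose groups did not overlap (up to 6 per direction by fold change), and partner genes came from the 2 with the highest mean CPM per list. Levels of other members are given as description. A pseudogene row was tied to a member if at least 50% of its 31-base words occur in the member's transcripts.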

Additional observations from a re-analysis of the deposited data

How the results depend on the processing

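With edgeR over all libraries 0 genes were called. The genes called higher were 8 with the DESeq2 Wald test, 29 with no filter on low counts (24 lower), 3 with the replicate block, and 0 to 102 when 1 library was left out (0 to 94 lower), the 102 and 94 without healthy 2. Members called were 0 higher throughout these 14 alternatives, and 0 lower except for Eef1d and Eif4g3 without healthy 2. In that fit healthy 1 alone stands for its group, and other genes were called as well. The replicate number as a block changed no call of a member, and the samples share only a number. Of 292 fold changes of the 33 named and tested members under alternatives other than leaving out a library, 283 kept direction and side of the threshold. The others changed sign: Eef1a1 to -0.28 with pseudogene rows added, Eif1 to 0.11 with library totals only, 0.0043 with DESeq2, 0.011 with no filter and 0.21 with the replicate block, Eif1ad to 0.14 with library totals and 0.16 with the replicate block, Eif2s3y to 0.039 with library totals, and Eif4a3 to -0.051 with protein-coding genes only.

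Leaving out 1 library gave log2 fold changes from -0.32 to 0.76 in Eef1a1, -1.17 to 0.29 in Eef2, -0.47 to 0.69 in Eif1, -0.44 to 0.20 in Eif1ad, -0.48 to 1.502 in Eif2ak3, -0.96 to 0.25 in Eif2b2, -1.27 to 0.18 in Eif2b4, -0.26 to 6.47 in Eif2d, -1.02 to 0.52 in Eif2s3y, -0.72 to 0.20 in Eif3f, -0.74 to 0.17 in Eif3h, -0.40 to 0.62 in Eif4a3, -0.24 to 0.56 in Eif4ebp2, -0.53 to 1.57 in Eif4g2, -2.87 to 0.99 in Eif4g3, -0.072 to 0.34 in Eif5 and -0.0061 to 0.73 in Eif5a. The 6.47 of Eif2d was fitted without healthy 2, against healthy 1 alone at 0 counts. It depends on the prior count and is no bound.

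Log2 ratios of summed CPM, HCC to healthy, without 1 library ran from -0.44 to 0.17 for all members, -0.54 to 0.25 for eEF1, -0.89 to 0.31 for eEF2, -0.21 to 0.15 for eIF3, -0.25 to 0.93 for eIF1 and eIF1A, 0.21 to 1.12 for eIF2, -0.60 to 0.32 for eIF2B, 0.27 to 4.18 for the eIF2 kinases, 0.071 to 2.36 for eIF2A and eIF2D, -0.23 to 0.83 for eIF4F, -0.36 to 0.62 for the eIF4E-binding proteins and 0.020 to 1.04 for eIF5A, their ends mostly set by healthy 1 or healthy 2. The 4.18 of the eIF2 kinases was without healthy 2, against healthy 1 alone at 1.35 CPM. With TMM scaling the log2 ratios of eIF3 and of the eIF5, eIF5B and eIF6 group were both -0.25 (-0.037 and -0.056 with library totals). The cause of these shifts was not tested. The biological coefficient of variation was 53.8%, and at this number of libraries even large changes of single genes were not called. Ttr, a hepatocyte marker, had a log2 fold change of 3.99, and Hbb-bs, an erythroid marker, had 2.53. Both had an edgeR adjusted p of 0.9998, so the lack of a call for a member does not exclude a change.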
